A study of Rattus norvegicus with 18 samples.

Results

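The peaks described here are the places on rat transcripts where RNA carrying N6-methyladenosine (m6A) was enriched in H9C2 cells treated with bufalin and in their untreated controls. Every peak of the list that the authors made over the bufalin and control libraries was kept, which gives 9866 peaks on 5122 genes, out of 19036 peaks in the 2 lists of the series. H9C2 is a cell line derived from rat heart, and the labels describe it as wild type myoblasts of a rat myocardial line. Bufalin is a cardiotonic steroid known from toad venom, and the study asked whether m6A takes part in the heart toxicity of bufalin and of periplocin, a plant cardiac glycoside. The groups were bufalin and control, each with 3 immunoprecipitated (IP) and 3 input libraries, 12 of the 18 samples; the other 6 came from cells treated with periplocin. The labels give no dose, no time of treatment and no account of whether the 3 samples of a group were separate cultures. A p-value here therefore speaks at most to the spread between these samples, which may be technical.

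m6A is placed on mRNA by a writer complex built around METTL3 and METTL14, can be removed by FTO and ALKBH5, and is bound by readers of the YTH family that influence the splicing, translation and decay of the marked RNA. In MeRIP-seq, fragmented RNA is pulled down with an antibody against m6A and sequenced beside the input RNA, and a peak is a stretch of exon with more IP than input reads. Bufalin and related steroids bind and inhibit the sodium pump, the Na,K-ATPase that keeps the sodium and potassium gradients of the cell membrane.

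For each peak the deposited list gives a fold enrichment of IP over input, its significance, and a log2 change of that enrichment between bufalin and control with a p-value and a false discovery rate (FDR). All of these peak values are the authors' own. The list gives 1 value per peak, with no value per library and no standard error. The depth behind a peak and the spread between samples are therefore unknown. Whether the p of a peak takes that spread into account is not stated. The header does not state the direction of the change; it is read here as bufalin over control, so that a positive value stands for more enrichment with bufalin, and every higher and lower below would turn if it ran the other way. The fold enrichment is read as IP over input, and whether it pools the bufalin and control libraries is not stated, so it cannot be taken as the level of either group. RNA levels come from the deposited bufalin RNA table, which gives a mean normalized count per gene over its samples and a log2 fold change with a standard error (SE).

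The RNA table was first set against markers of cell types. Of 18 striated muscle and myoblast markers, 16 were listed and 12 reached a mean normalized count of 10, among them Tnnt2 at 4293, Cdh15 at 2259, Des at 1037 and Myod1 at 716, while Myog stood at 12.1 and Actc1 was listed at 0. Fibroblast markers were above 10 in 4 of 5 cases, from Thy1 at 6686 to Col1a1 at 412632, with Pdgfra at 6.48, and all 4 smooth muscle markers were above 10. Of 7 ventricular cardiomyocyte markers 4 were above 10, none higher than Gata4 at 309, and Nppa stood at 5.44. Endothelial, leukocyte and epithelial markers reached 10 in 2 of 5, 2 of 4 and 1 of 4 cases. In bulk RNA, fewer cells of a type and less RNA per cell cannot be told apart.

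The peaks lay on the more abundant transcripts. Of 10679 genes at a mean normalized count of 10 or more, 5109 (47.8%) carried a peak, and the median count was 2048 for genes with a peak against 414 for those without. By deciles of the RNA level, the share of genes with a peak was 1.4% in the lowest, 44.1% in the fourth, 64.1% in the seventh, and 73.3% and 72.9% in the 2 highest. Another 13 genes with a peak had a count under 10, and 5 of them were listed at 0. Of the 5122 gene names, 4958 matched a RefSeq symbol and 131 more a synonym; 4946 were protein coding and 5 were long noncoding RNAs. Among these, H19, an imprinted noncoding RNA, had 1 peak with a fold enrichment of 1.44 and a change of 0.04, and Oip5-as1 had 2, with enrichments of 2.44 and 1.60 and changes of -0.12 and -0.70 (the authors' p = 0.0115, not past the FDR).

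**Figure D1:**
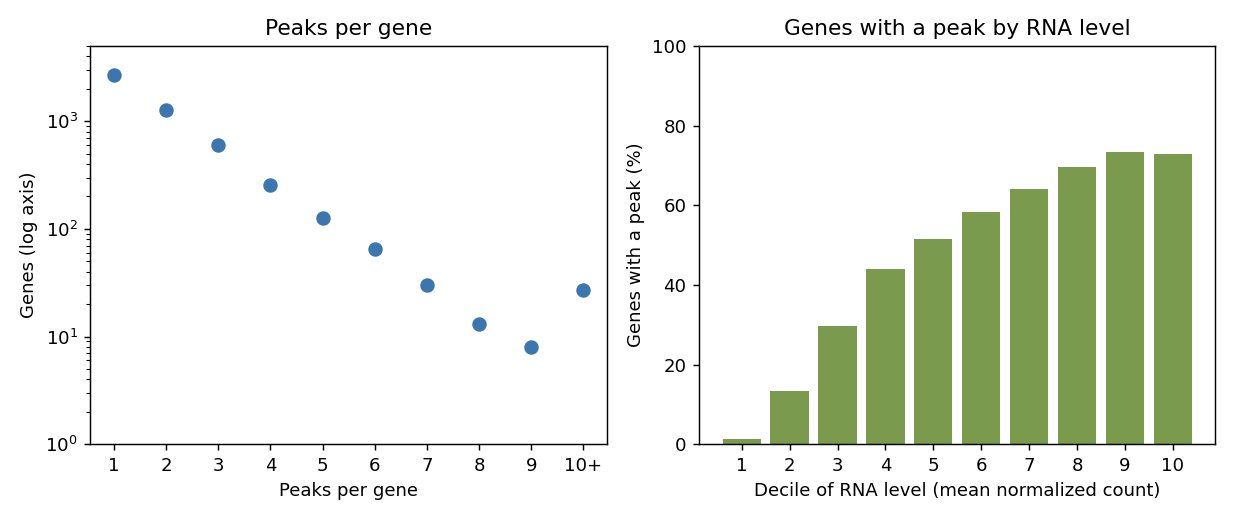
Number of bufalin m6A peaks per gene (left, points, log axis of genes) and share of genes with a peak in each decile of mean normalized RNA count (right, bars, percent; decile 1 is the lowest). A single peak was found on 2711 genes, and the share of genes with a peak went from 1.4% in the lowest decile to 72.9% in the highest.

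Most peaks were short and modestly enriched. The summed exon length of a peak had a median of 150 bases, with quartiles of 101 and 249 and a longest peak of 1989, and 5499 peaks (55.7%) lay in a single exon block. Fold enrichment had a median of 1.82, with 10% of peaks under 1.34 and 10% above 2.65. At least 2-fold enrichment was reached by 3681 peaks (37.3%), 4-fold by 62 (0.628%) and 10-fold by 7.

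The most enriched peaks lay on genes of varied roles. Esf1, a nucleolar protein gene, had the highest enrichment at 16.0, with a change of -0.13 between bufalin and control. Shox2, a homeobox factor of sinoatrial node development, followed at 15.6 with a change of 0.09. Rrn3, an initiation factor of RNA polymerase I, stood at 13.3 with 0.27, and Map3k7, which encodes the kinase TAK1, at 12 with 3.90. Ahi1 at 11.6, Cstf2 at 11.3 and Abcc5 at 10.8 completed the peaks above 10, with changes of -0.26, 2.95 and 0.14. Hsp90aa1, Cttn and Nfe2l1 came next at 8.19, 8.11 and 7.45. Changes of more than 1 on the log2 scale therefore stood at 4 of these 10 peaks (Map3k7, Cstf2, Hsp90aa1 and Cttn), and none of the 10 passed the FDR. Over all 9866 peaks, 73 had a change of at least 2-fold. The Hsp90aa1 and Cttn peaks are among 28 at the end of the list that are described below. Since the enrichment may pool the bufalin and control libraries, it may not be independent of the change.

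Along a gene, the listed enrichment varied from peak to peak. A single peak was found on 2711 genes (52.9%), 2 on 1283, 3 on 601, 4 to 9 on 500, and 10 or more on 27 genes, which together held 348 peaks. Over the 1125 genes with 3 or more peaks on 1 strand, the most enriched peak exceeded the least enriched one 1.60-fold at the median. Such a ratio cannot fall below 1, and without an error per peak the part of noise in it is unknown. In the 599 genes with 3 peaks in order on 1 strand, the most enriched was the 5′ one in 180 (30.1%), the middle one in 200 (33.4%) and the 3′ one in 219 (36.6%). In the 258 genes with 4 peaks, the shares from 5′ to 3′ were 22.1%, 24.4%, 27.5% and 26.0%. Stop codons and untranslated regions were not mapped, so these are orders along the gene and not transcript features.

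The genes with most peaks were long transcripts. Ahnak, a giant membrane-linked scaffold, had 27 peaks with enrichments of 1.34 to 3.28 and changes of -0.18 to 0.28, of which 19 were above 0. Macf1, a linker of microtubules and actin, had 23 peaks, 9 above and 14 below 0. Cenpf, a kinetochore protein gene, had 19, with 6 above and 13 below 0, and Akap9, Golgb1 and Mki67 had 15 each. No peak of these 6 genes passed the FDR, and 6 of their peaks had an unadjusted p under 0.05. These were 2 each on Ahnak (of 27), Golgb1 (of 15) and Mki67 (of 15). Over all peaks, 0.0304% passed the FDR and 3.04% had such a p.

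The comparison of bufalin with control asked where the enrichment differed, and 3 of the 9866 peaks (0.0304%) had an FDR of the change under 0.05. They lay on Smarcb1 and Dock1, where enrichment was higher with bufalin (2 peaks, 0.0203%), and on Rere, where it was lower (1 peak, 0.0101%). The same 3 were at least 2-fold changed. The count rests on 28 peaks that stand out of chromosome order at the end of the list, Smarcb1's among them. When they were left out and Benjamini-Hochberg FDRs were computed again, 0 peaks were called. Dock1 and Rere then stood at an FDR of 0.0503 each, just past the threshold, and 291 of the remaining 9838 peaks had an unadjusted p under 0.05.

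Smarcb1 encodes a core subunit of the SWI/SNF chromatin remodeller. Its only peak lay at positions 33995 to 37990, plus strand, of an unplaced scaffold of rn6, in 2 exon blocks of 147 bases together. The fold enrichment was 5.50 and the change 4.89 on the log2 scale, or 29.7-fold (the authors' p = 1.41e-06, FDR = 0.0138). Smarcb1 RNA differed by 0.01 ± 0.09 (log2, SE) in the authors' deposited table at a mean count of 1452, and no peak of the periplocin list overlapped this one.

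Dock1 encodes a guanine nucleotide exchange factor that activates the small GTPase Rac. Its called peak, the middle one of 3, lay at chr1:207330475-207340222 on the plus strand in 3 blocks of 250 bases. It had a fold enrichment of 2.0 and a change of 1.37, or 2.58-fold (the authors' p = 6.17e-06, FDR = 0.0309). The peaks on either side had changes of -0.35 (the authors' p = 0.520) and -0.64 (p = 0.302), below 0 and not past the FDR; the difference between the 3 peaks was not tested. Dock1 RNA differed by -0.08 ± 0.09 (log2, SE) in the authors' deposited table, at a mean count of 5763.

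Rere encodes a nuclear receptor corepressor of the atrophin family. Its called peak, number 4 of 7 from the 5′ end, was a single block of 101 bases at chr5:167657722-167657822 on the plus strand. It was weakly enriched, at 1.40, and had a change of -1.27, or 0.415-fold (the authors' p = 1.02e-05, FDR = 0.0339). The other 6 peaks of Rere had changes between -0.08 and 0.18 and enrichments of 1.53 to 2.32. Rere RNA differed by 0.19 ± 0.07 (log2, SE) in the authors' deposited table, with an adjusted p of 0.323. Among peaks of at least 2-fold enrichment, with the FDR computed again, 2 were called and Rere's was not in that set.

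**Figure D2:**
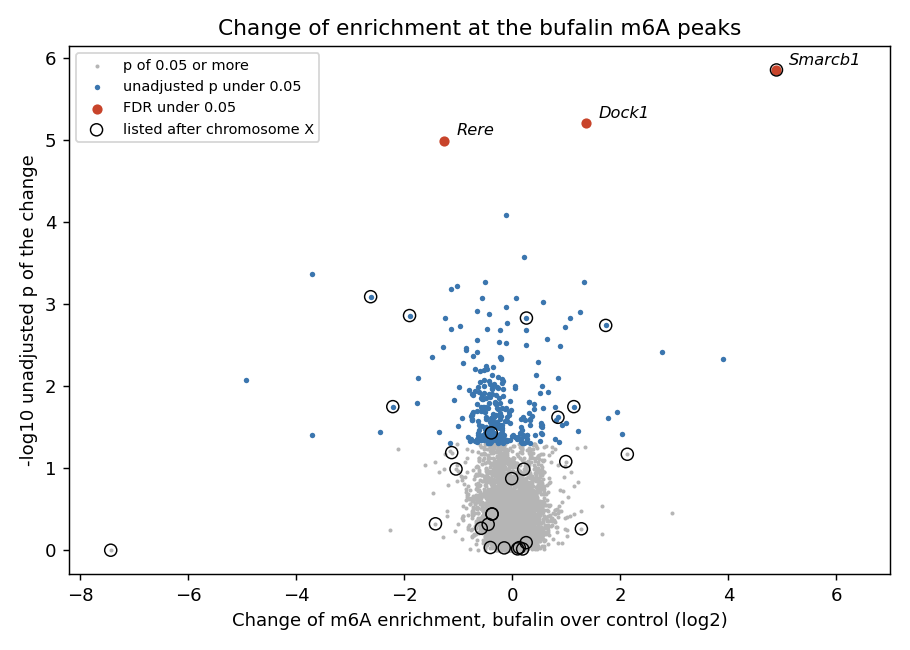
Log2 change of m6A enrichment, bufalin over control, against the -log10 unadjusted p of the change for the 9866 peaks; colours mark p and FDR, and rings mark the 28 peaks listed after chromosome X. The 3 peaks with an FDR under 0.05 carry the names Smarcb1, Dock1 and Rere, and the farthest peak on the left, on Hells at -7.43, has a p of 1.

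The peaks next in order of p had small and large changes. The next smallest p belonged to Ppp1r15b, which encodes a subunit that directs dephosphorylation of eIF2, at chr13:49934650-49934849, with a change of -0.11 (the authors' p = 8.32e-05, FDR = 0.204). Hspa9, a mitochondrial chaperone gene, followed with 0.21 (FDR = 0.525). From there the FDR was 0.631 or more, at peaks on Map2k3 (-3.70), Rbbp8 (-0.51), Yae1 (1.33) and Spin1 (-1.03). These genes, and all others named for a large change or for several peaks with a small p, were picked after their values were seen.

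Over all peaks the change was close to 0. The median was -0.021 on the log2 scale, with quartiles of -0.14 and 0.10, and 90% of peaks lay between -0.42 and 0.36. Peaks below 0 numbered 5405, peaks above 0 numbered 4451 and 10 were at 0. An unadjusted p under 0.05 was found at 300 peaks (3.04%) on 281 genes, and of these 76 were higher (0.77% of all) and 224 lower (2.27%). The higher share was thus 25.3% among these 300 against 45.1% among all peaks; with the sign turned it would be 74.7% against 54.8%. Their median absolute change was 0.42. A p of 0.9 or more stood at 2195 peaks (22.2%).

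Large changes and small p-values were only partly the same peaks. A change of at least 2-fold was listed at 73 peaks, 30 higher and 43 lower, and 33 of them had an unadjusted p under 0.05. Hells, a chromatin remodelling helicase gene, had the lowest change at -7.43 with a p of 1, while Ppp1r15b combined a change of -0.11 with the fourth smallest p. Map3k7 at 3.90 (the authors' p = 0.00468), Cstf2, a factor of mRNA 3′ end cleavage, at 2.95 (p = 0.348), and Wbp11, a splicing factor gene, at 2.78 (p = 0.00389) had the largest positive changes after Smarcb1. On the other side stood Exoc2, an exocyst subunit gene, at -4.92 (the authors' p = 0.00851), Entpd1 at -3.71 (p = 0.0389) and Map2k3, a MAP kinase kinase gene, at -3.70 (p = 0.000427). The 73 peaks had a median exon length of 101 bases, against 150 over all peaks.

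The 28 peaks at the end of the list differed from the rest on several measures. They carry 20 gene names, 6 of which are also listed earlier, and besides Smarcb1 they include Tnks2 (-2.62), the Hells peak, both Cttn peaks and the Hsp90aa1 peak at -1.90. Their median absolute change was 0.71 against 0.12 for the other 9838, 9 (32.1%) had an unadjusted p under 0.05 against 2.96%, and 12 were at least 2-fold changed against 61. Their median fold enrichment was 2.29 against 1.82. Why they stand apart in the list is not stated, and its part in their values was not tested. Some of the 28, such as peaks of Myh9l1, overlap a peak of another gene name. In the whole list 58 peaks (0.588%) do so, counted from start to end with the gaps between exon blocks included. Among them are those of Myh9 with Myh9l1 and of Hnrnpc with LOC100911576. Where such peaks cover the same exon bases, their values cannot be assigned to 1 gene.

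The width of the change and the share of small p-values varied with the RNA level and the layout of the peak. In the lowest quintile of peaks by RNA level, the quartiles of the change were -0.21 and 0.18, and in the highest they were -0.09 and 0.06. The share of peaks with an unadjusted p under 0.05 was 1.72% in the lowest quintile and 4.26% in the highest. It was 2.29% for single blocks, 3.41% for 2 blocks, 4.26% for 3, 6.22% for 4 or 5, and 5.17% for the 116 peaks of 6 or more. By quintiles of enrichment the same share lay between 2.53% and 3.29%, with no order. The spread of the change was narrower at peaks of more blocks. Its quartiles were -0.145 and 0.141 for single blocks, with a median of 0.0005. For 6 or more blocks they were -0.112 and -0.002, with a median of -0.064. Peaks of more blocks were also longer and on more abundant RNA. Median exon lengths were 150 bases for single blocks and 642 for 6 or more, and median counts 2334 and 6334. Block number, length and RNA level were not separated.

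Peaks of 1 gene often differed in sign, and over all peaks 45.1% were above 0. How many genes would hold both signs at that share alone was not computed. Of 1128 genes with 3 or more peaks, 82 had all their changes above 0, 168 had all below 0, and 878 had both signs. The median SD of the change within such a gene was 0.16, beside an SD of 0.29 over all peaks, on which the largest changes weigh. On 17 gene names, 2 or more peaks had an unadjusted p under 0.05: 5 names had them all higher, 8 all lower and 4 in both directions. The names with all higher include both Myh9 and Myh9l1, some of whose peaks overlap and may be 1 signal listed under each name. None of the peaks with such a p on the 17 names passed the FDR.

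Prrc2c, which encodes a protein of stress granule assembly, had 3 such peaks of 13, with changes of -1.13, -0.48 and -0.34. Tnrc6a, the scaffold of miRNA silencing also known as GW182, had changes of -0.48 and -0.41 at 2 of its 8 peaks. The RNA-binding protein genes Rbm27 (-0.31 and -0.48) and Rbm33 (-0.63 and -0.51), the elongation scaffold gene Aff4 (-0.62 and -0.20) and the SMC complex gene Smc5 (-0.18 and -0.23) also had 2 such peaks each, all below 0. Hsp90aa1, a cytosolic chaperone gene, had -1.90 and -0.29 at its 2 peaks. In the other direction, Mki67, the proliferation marker gene, had 0.47 and 0.58 at 2 of 15 peaks, Ahnak 0.28 and 0.10 at 2 of 27, and Cttn, which encodes the actin-binding protein cortactin, 0.85 and 1.73 at its 2. Exoc2 had one of each sign, -4.92 and 0.07, as did Tcea1 with -0.53 and 0.44, Paxip1 with 0.25 and -0.49 and Golgb1 with 0.11 and -0.14.

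**Figure D3:**
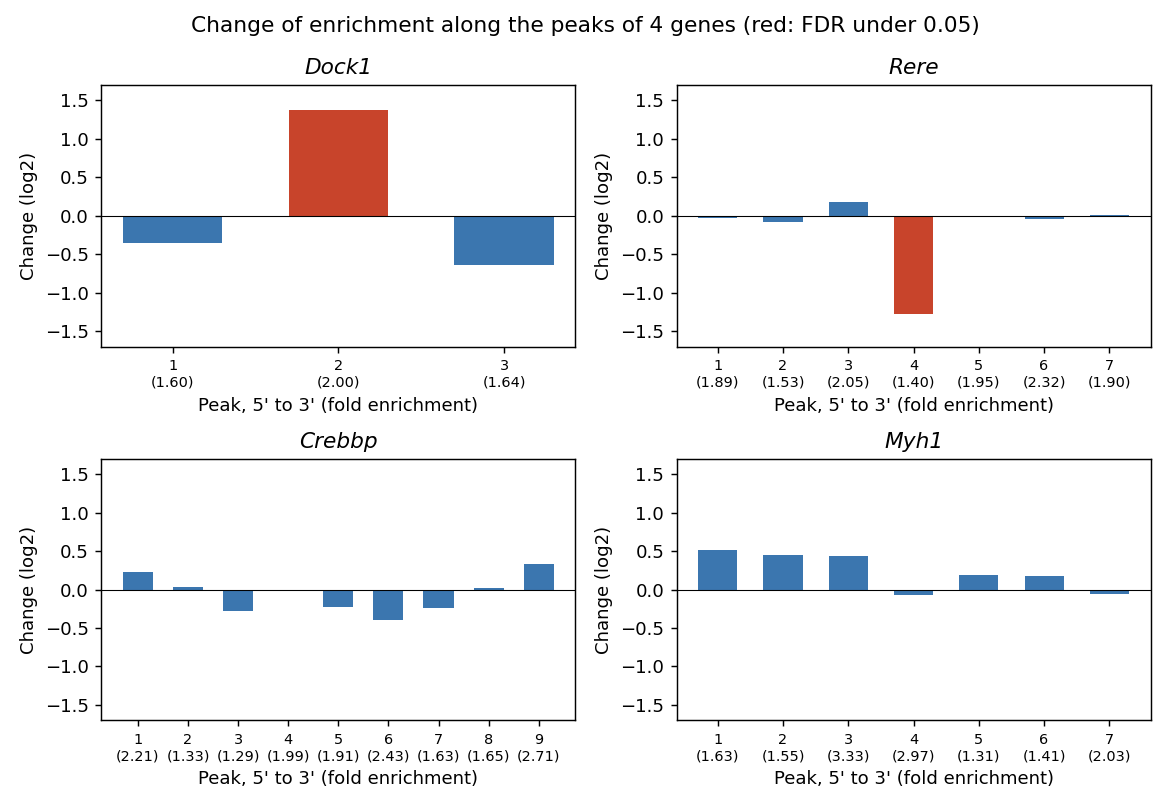
Log2 change of m6A enrichment, bufalin over control, at each peak of Dock1, Rere, Crebbp and Myh1, ordered from 5′ to 3′ with the fold enrichment in brackets; red bars have an FDR under 0.05. Only 1 peak of Dock1 and 1 of Rere is red, and their neighbours lie between -0.64 and 0.18.

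RNA of few genes differed with bufalin. In the authors' deposited table, 10 of 3321 genes with an adjusted p had one under 0.05 (0.301%), 6 higher and 4 lower. All 10 carried m6A peaks, at mean counts of 2323 or more, and of all genes in each of the 4 highest deciles of RNA level between 64.1% and 73.3% carried one. The 28 peaks of the 10 genes were of both signs, 15 above and 13 below 0. None of the 28 had an FDR or an unadjusted p of the change under 0.05, the smallest p being 0.123. Over all peaks these shares were 0.0304% and 3.04%, so a count of 0 among 28 is near them. The median change of the 28 was 0.02.

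The genes with higher RNA had peaks with small or mixed changes. H19 RNA was higher by 0.51 ± 0.05 (log2, SE) in the authors' deposited table (adjusted p = 9.01e-23), with a change of 0.04 at its peak. Spp1, the osteopontin gene, was higher by 0.56 ± 0.11 in that deposited table, with a peak change of 0.08. Myh1, a fast skeletal myosin heavy chain gene, was higher by 0.47 ± 0.11 there, and its 7 peaks had changes from 5′ to 3′ of 0.51, 0.45, 0.44, -0.07, 0.19, 0.18 and -0.06. Crebbp, a histone acetyltransferase gene, was higher by 0.29 ± 0.07 there, with 9 peaks between -0.40 and 0.33. Dnmt3a, a de novo DNA methyltransferase gene, had changes of 0.33 and -0.04 at its 2 peaks.

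The genes with lower RNA were alike in this. Ccn2, a matricellular growth factor gene, differed by -0.28 ± 0.07 (log2, SE) in the authors' deposited table, with a peak change of 0.13. Cxcl12, a chemokine gene, differed by -0.25 ± 0.05 there, with changes of -0.05 at both peaks. Ncald and Tgfb3 differed by -0.33 ± 0.07 and -0.30 ± 0.07 there, and their peaks had changes of 0.12 for Ncald and -0.09 and -0.04 for Tgfb3.

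Across all genes with a peak, the relation of the change of enrichment to the change of RNA was weak. Over 5109 genes, the mean change of a gene's peaks and its RNA change had a Pearson r of -0.126 and a Spearman rho of -0.179, and 0.126 and 0.179 if the peak change runs the other way while the RNA change does not. Genes are not independent replicates, and the 2 measures may share the input libraries, since enrichment is taken relative to input; the part of that in the correlation was not tested. In quintiles of RNA change with medians of -0.12, -0.04, 0.01, 0.06 and 0.15, the median change of the peaks was 0.03, -0.01, -0.02, -0.03 and -0.06. The share of genes with a mean change above 0 was 58.8% in the lowest quintile and 34.2% in the highest.

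**Figure D4:**
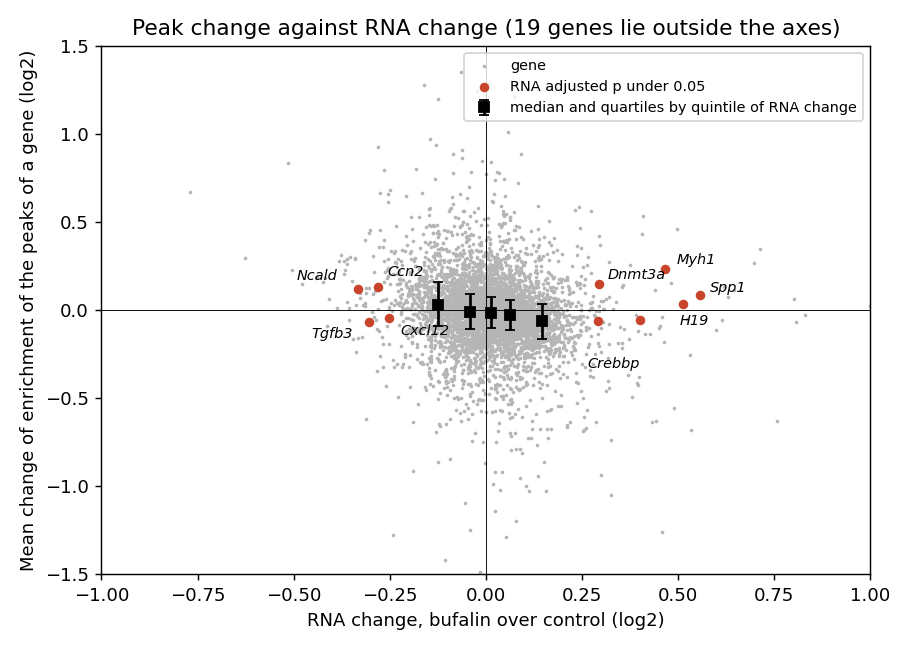
Mean log2 change of the m6A peaks of a gene against its log2 RNA change, bufalin over control, for 5109 genes, of which 19 lie outside the axes; squares with bars give the median and quartiles of the peaks in each quintile of RNA change. The medians go from 0.03 to -0.06. The 10 genes with an adjusted RNA p under 0.05 are red, 9 of them with names. On the vertical axis they lie between -0.07 (Tgfb3) and 0.23 (Myh1).

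Gene groups were then read from 24 lists of 691 genes. On the lists, 345 genes carried 943 peaks. None of these peaks had an FDR of the change under 0.05 in the authors' deposited list. The genes of the called peaks, Smarcb1, Dock1 and Rere, are on none of the 24 lists. An unadjusted p under 0.05 stood at 27 of the 943 peaks (2.86%), against 3.04% over all peaks. The list medians ran from -0.09 to 0.28, 17 below and 7 above 0, and 23 of the 24 were within 0.1 of 0.

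Of the 24 measured genes of the m6A machinery, 18 (75%) carried 53 peaks. The list had a median count of 2439, and of all genes in the deciles with median counts of 1944 and 2899, 64.1% and 69.7% had a peak. The peaks had a median change of -0.015, 23 above and 29 below 0, and 0 with an FDR or an unadjusted p under 0.05. Over all peaks, 0.0304% and 3.04% had one. Among the writers, Mettl3, the catalytic subunit, had 2 peaks with changes of 0.10 and 0.50 (the authors' smallest p = 0.113). Its partner Mettl14 had 3 between -0.14 and 0.21, and the adaptor Wtap 4 between -0.21 and 0.63. Zc3h13, another part of the complex, carried 8 peaks between -0.23 and 0.20. The erasers Fto and Alkbh5 had no peak at mean counts of 2663 and 1590. Among the readers, Ythdf1, Ythdf2 and Ythdf3 carried 3, 3 and 4 peaks. Of these 3 genes, Ythdf3 had the lowest change at -0.43 and Ythdf2 the smallest p of the authors at 0.0977. The nuclear reader Ythdc1 had 3 peaks between -0.03 and 0.01 (the authors' smallest p = 0.0891). Igf2bp1 had 1 peak and Igf2bp3 had 2, while Igf2bp2, Hnrnpa2b1 and Elavl1 had none.

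On the list around the sodium pump, 1 of 8 measured genes (12.5%) carried a peak, at a median count of 3710. Of all genes in the deciles with median counts of 2899 and 4936, 69.7% and 73.3% had one. The gene was Slc8a1, which encodes the sodium-calcium exchanger. Its peaks had enrichments of 2.59 and 1.67 and changes of 0.07 and 0.08. The beta subunit genes Atp1b1 and Atp1b3 had no peak at mean counts of 7899 and 8098.

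The lists differed in how many of their genes carried a peak. Cytoskeletal linkers had a peak in 92.3% of measured genes, chromatin regulators and heat shock genes in 86.7% each and Hippo pathway genes in 81.2%. The median counts of these lists ran from 5014 to 35242, and in the 2 highest deciles of RNA level 73.3% and 72.9% of all genes had a peak. Cell cycle genes had one in 36.1%, cytosolic ribosomal proteins in 30% and the nuclear-encoded respiratory chain in 9.68%. The median counts of these 3 lists were 1451, 38468 and 2565, at levels where between 58.4% and 73.3% of all genes had a peak.

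Chromatin regulators carried 126 peaks on 26 genes, with a median change of -0.03, 47 above and 79 below 0. The remodeller genes Chd1 (-0.36, the authors' p = 0.00589) and Chd7 (-0.76, p = 0.0229) held the 2 with an unadjusted p under 0.05. Smarcb1 and Rere, whose peaks were called, are not on this list. Cytoskeletal linkers had 108 peaks with 67 above 0 and a median of 0.04, and their 2 such peaks were the Ahnak pair. Heat shock and chaperone genes had 22 of 27 peaks below 0 with a median of -0.04, and both with a small p were on Hsp90aa1. The integrated stress and unfolded protein response list had 25 of 33 below 0 and a median of -0.07, with Ppp1r15b at -0.11 and Eif2ak3, the PERK kinase gene, at 0.56 (the authors' p = 0.01). Ribosomal protein genes had 15 of 18 below 0, with Rps6 at -0.39 (the authors' p = 0.0372). Over all peaks, 4451 of 9866 were above 0 and the median was -0.021.

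In signalling, the changes were of both signs. Igf1r, a growth factor receptor gene, had a peak at 1.07 (the authors' p = 0.00148) and Sos1, an exchange factor for Ras, one at -0.23 (p = 0.0158), while the MAP kinase and receptor kinase list had a median of -0.025 over 50 peaks. The ligand gene Bmp4 had -0.38 (the authors' p = 0.0107), in a TGF-beta and BMP list with 16 peaks above and 24 below 0. Among immediate early genes the transcription factor genes Srf and Egr1 had 0.32 (the authors' p = 0.0490) and -0.24 (p = 0.0479), and the list was even at 18 above and 18 below. The Hippo list had no peak with a p under 0.05 in 47, where 3.04% of all peaks had one. Its smallest p was that of the kinase gene Lats1 at 0.62 (the authors' p = 0.0537).

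Lists on RNA handling and growth gave lower medians in the same narrow range. The mRNA decay list had 12 peaks above and 23 below 0 with a median of -0.09, and the Tnrc6a pair held its 2 small p-values. Splicing regulators had 21 above and 33 below, with Rbm39 at -0.69 (the authors' p = 0.00617) and Luc7l3 at -0.19 (p = 0.0468). Cell cycle genes had 19 above and 34 below and a median of -0.09. Ccne2, which encodes cyclin E2, had -0.55 (the authors' p = 0.0195), beside the peaks of Mki67 above. Calcium handling genes had the lowest median, -0.09, with 13 of 39 peaks above 0 and Nfat5, an osmotic response factor, at -0.20 (the authors' p = 0.0468). The respiratory chain had the highest, 0.28, over 4 peaks on 3 genes, of which Atp5pb held 2; one of these is among the 28 at the end of the list.

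**Figure D5:**
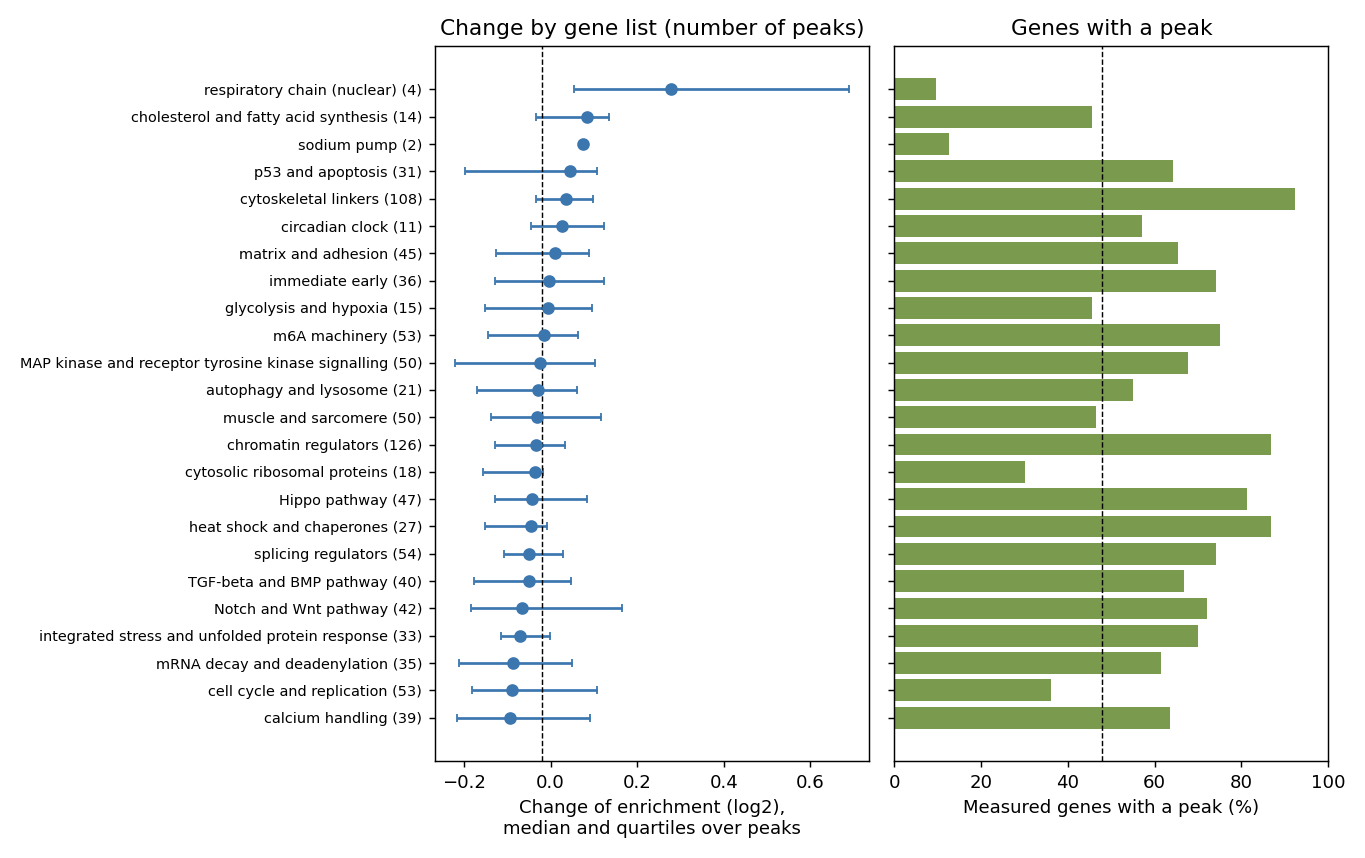
Median log2 change of m6A enrichment with quartiles over the peaks of each of 24 gene lists (left, number of peaks in brackets, dashed line at the median of all peaks) and share of measured genes with a peak (right, percent, dashed line at 47.8%). The medians lie within 0.1 of 0 except the respiratory chain with 4 peaks, while the shares run from 9.68% to 92.3%.

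The bufalin peaks were set beside those of periplocin, in a list made against the same control libraries, so the values are given side by side only. On the same strand, 8185 of the 9866 bufalin peaks (83.0%) overlapped a periplocin peak by at least 1 base, and 8200 of 9170 periplocin peaks (89.4%) overlapped a bufalin peak. Overlapping peaks had a median enrichment of 1.89 and a median RNA count of 3079, and the 1681 without a partner 1.52 and 1891. A p of the change under 0.05 stood at 3.18% and 2.38% of them.

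Of the called peaks, Dock1's had a partner with a change of 1.36 with periplocin (the authors' p = 0.00457, FDR = 0.849) beside 1.37 with bufalin. The partner of the Rere peak had -0.68 (the authors' p = 0.0170) beside -1.27. Hsp90aa1 had -1.98 beside -1.90, and Cttn 1.04 beside 1.73. Map2k3 stood at 1.68 with periplocin against -3.70 with bufalin, Tnks2 at -0.02 against -2.62 and Anp32a at 0.10 against -1.49; these differences were not tested. Of the most enriched peaks, Esf1, Shox2, Ahi1 and Nfe2l1 had enrichments of 11.7, 13.3, 11.4 and 7.56 in the periplocin list, Abcc5 had 2.01, and Rrn3, Map3k7 and Cstf2 had no partner.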

How the data were processed

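The labels describe stranded mRNA libraries with molecular identifiers from 12 samples (3 IP and 3 input each for bufalin and control). HISAT2, StringTie, DESeq and the build rn6 are named per the submitters' processing notes; of the peak caller, tool versions and library sizes, the sources read for this text say nothing. The authors deposited a peak list with fold enrichment (a ratio read as IP over input, with any pooling of bufalin and control not stated), log10 p-value and FDR of peak and change, and log2 change, per the file headers. Peak scores in the deposited list were not used. The deposited RNA table gives mean normalized counts (a signal, not raw counts), log2 fold changes, SEs and adjusted p-values from DESeq.

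Peaks were joined to RNA by gene name, ordered along each strand and overlapped on chromosome and strand (1 base). Start positions were made 1-based. No test was run: a peak was called at the deposited FDR under 0.05, and p-values were adjusted again with Benjamini-Hochberg only in the alternatives, tested on simulated data. Python 3.11.15 with pandas 2.3.3, numpy 2.4.6, scipy 1.17.1 and matplotlib 3.10.9 were used. Named genes are all called peaks, the 10 most enriched peaks, the 6 genes with most peaks, all genes with called RNA and, per list, up to 4 members with the smallest p (all with a peak for m6A machinery and sodium pump); others are said to be picked after their values were seen. The peaks, gene lists and markers were chosen with earlier results of these data known. Alternatives were other FDR limits and filters on enrichment, count and length, another peak per gene and another overlap. Peak sequences, motifs and transcript features were not analysed here, and some items are not reported here.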

Additional observations from a re-analysis of the deposited data

How the results depend on the processing

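The count of 3 called peaks fell to 0 at an FDR under 0.01, to 1 (Dock1, FDR = 0.0217) among peaks of at least 200 exon bases with the FDR computed again, and to 0 without the 28 peaks at the end of the list, an alternative chosen after seeing the data, where Dock1 and Rere reached an FDR of 0.0503. It stayed at 3 at an FDR under 0.1, with a 2-fold minimum, with the adjustment recomputed, and with limits on enrichment FDR or RNA count, and was 2 at an enrichment of at least 2. The correlation across genes was -0.0863 with no minimum count (5117 genes), and between -0.103 and -0.139 under its other alternatives. The share of bufalin peaks overlapping a periplocin peak was 74.4% when 50% of both spans had to be shared. The median change lay between -0.00955 and -0.0209 under its alternatives. The count of called RNA was 12 in place of 10 when p-values were adjusted over 12876 genes.

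No paired analysis was possible because the deposited lists give comparisons and no value per library; leaving out each replicate was not run for the same reason. The depth behind a peak is unknown, so a peak that was not called is not shown to be unchanged.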
